A study of Drosophila melanogaster with 9 samples.

Results

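Crosslinks on the glycolytic enzyme genes Hex-A, Pfk, Tpi, Gapdh1, Gapdh2, Pgk, Pglym78, Eno and PyK were read from iCLIP2 libraries of the TRIM-NHL protein Mei-P26. The members were chosen by name, as genes of the glycolytic pathway. No measured value set the choice, but earlier results of these data were known when it was made. All 9 had at least 1 cDNA, out of 6780 genes with a cDNA in these libraries. They held 141 cDNAs in all, that is 62 in the full-length, 74 in the NHL domain and 5 in the control libraries.

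iCLIP maps the nucleotide at which a protein was crosslinked to RNA by UV light, because reverse transcription stops there, and each distinct cDNA counts as 1 crosslinking event. Drosophila S2 cells were transfected with a pAC5.1 plasmid, which carries the Actin 5C promoter, for either full-length Mei-P26 with a FLAG tag or the FLAG-tagged NHL domain alone (residues 908 to 1206). RNA was recovered with anti-FLAG antibody 48 h after transfection, and the control was the same immunoprecipitation from cells that had not been transfected. There were 3 biological replicates in each of these 3 groups. The labels give the cells as S2R+ in one field and as SL2 in another, and a protocol text shared by all samples names Mei-P26 mutants as control where each control's own label says non-transfected. Both baits were expressed from a strong promoter in a cell line, outside the germline in which Mei-P26 is known to act.

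Glycolysis converts glucose to pyruvate in the cytoplasm and yields ATP and NADH. Hexokinase and phosphofructokinase commit sugar to the pathway, triosephosphate isomerase and glyceraldehyde-3-phosphate dehydrogenase handle the triose phosphates, and phosphoglycerate kinase, phosphoglycerate mutase, enolase and pyruvate kinase carry the product on to pyruvate. These enzymes are generally made from abundant mRNAs in growing cells. RNA levels were not measured in these samples, so a more abundant mRNA and a more strongly bound one cannot be told apart in any value given here.

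The full-length libraries held 1878 to 21831 cDNAs, the NHL domain libraries 4321 to 40032 and the control libraries 849 to 1252. The transfected gene mei-P26 had 798 cDNAs in full-length, 572 in NHL domain and 20 in control libraries. For Act5C, whose promoter the plasmid carries, the counts were 126, 121 and 0. These counts also follow the depth of the libraries. Per 10000 cDNAs, both genes together gave 143.8 to 373.2 in full-length, 130.1 to 152.7 in NHL domain and 24.0 to 129.6 in control libraries. The highest control rate was thus close to the lowest NHL domain rate. Of 8 markers of the hemocyte-like state of S2 cells, 6 had a cDNA, led by the collagen gene Col4a1 with 164, while Hml and NimC1 were at 0. Of 6 germline markers only aub had any, with 2 cDNAs, and the 3 follicle cell markers were at 0. Of 4 neuron markers 3 had a cDNA, with 6 for elav, 3 for brp and 1 for Syt1.

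The members had more cDNAs than a typical gene but remained thinly covered. A member had a median of 16 cDNAs over the 9 libraries, against 4 for all genes with a cDNA. Eno and PyK had most, with 27 cDNAs each, and 90.9% of genes had fewer. Gapdh2 followed with 26, Hex-A with 20, Gapdh1 with 16, Pgk with 10, Pglym78 with 7, Tpi with 6 and Pfk with 2. Of the 138 pairs of a library and a position in these genes, 135 (97.8%) rested on a single cDNA. No crosslinked position of a member was also assigned to another gene.

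Set per kilobase of the annotated gene, introns included, the order changed. Gapdh2 had 17.1 cDNAs per kb (exact Poisson 95% interval 11.2 to 25.1) and Gapdh1 10.8 (6.18 to 17.6), followed by Eno with 5.55 (3.65 to 8.07). The short Gapdh genes thus led the longer Eno and PyK on this scale. PyK stood at 5.18 (3.41 to 7.54), Hex-A at 4.83 (2.95 to 7.46), Pglym78 at 4.23 (1.70 to 8.72) and Tpi at 3.71 (1.36 to 8.07). Pgk had 1.62 (0.775 to 2.97) and Pfk 0.259 (0.0314 to 0.936). The intervals of each neighbouring pair in this order overlap, whereas those of Gapdh2 and Eno, for example, do not. The cDNAs are summed over libraries, so the deepest libraries weigh most, and the intervals cover counting error only.

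Summed over the 9 genes, the rates of the baits overlapped. It is given as cDNAs on the members per 10000 cDNAs of the library. The full-length libraries gave 15.0, 16.0 and 16.9 in replicates 1 to 3, a mean of 16.0 ± 0.984 (SD, n = 3), and the NHL domain libraries gave 13.9, 16.4 and 13.7, a mean of 14.7 ± 1.47 (SD, n = 3). The control libraries gave 31.9, 8.62 and 0, a mean of 13.5 ± 16.5 (SD, n = 3), from 4, 1 and 0 cDNAs. The control therefore spans both baits and does not set a background level for these genes. Pooled over libraries, the rate with full-length Mei-P26 was 1.05 times that of the control (95% counting interval 0.428 to 3.36), and that with the NHL domain was 0.923 times that of the control (0.378 to 2.93). The ratio of full-length to NHL domain was 1.14 (0.801 to 1.62).

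**Figure D1:**
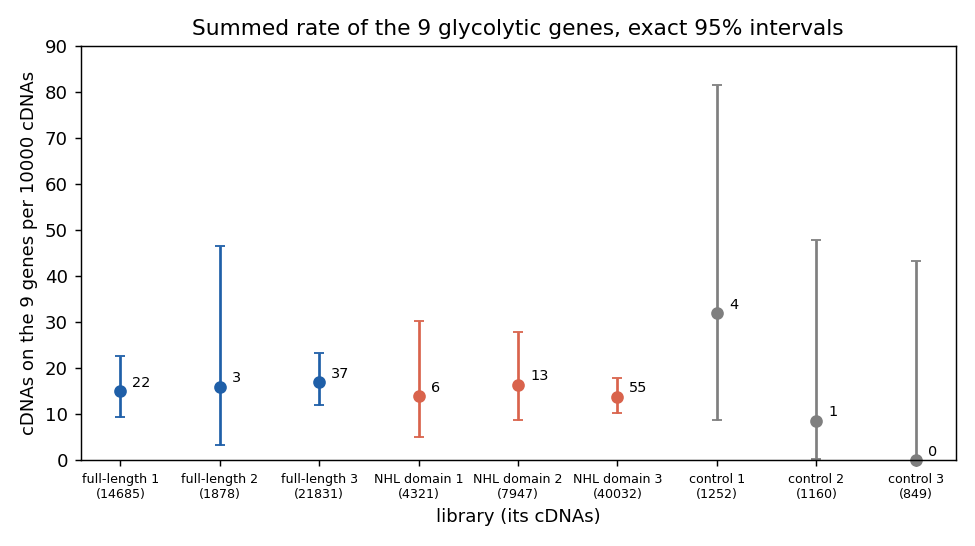
Summed rate of the 9 glycolytic genes in each library, in cDNAs per 10000 cDNAs of that library on the y axis, with exact 95% intervals as bars, the cDNAs on the genes beside each point and the library's cDNAs under its name. The 6 bait libraries lie between 13.7 and 16.9, whereas the 3 control libraries spread from 0 to 31.9 with wide intervals.

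Of the 9 members, 6 reached the minimum of 10 cDNAs over all libraries and could be tested in the edgeR fit across 1869 genes; Pfk, Tpi and Pglym78 did not. None of the 6 passed an adjusted p of 0.05 in any comparison. Against the control, 0.161% of all genes tested were called higher with full-length Mei-P26 and 1.07% with the NHL domain, and between the baits 0.0535% were called higher for full-length Mei-P26 and 1.87% lower. The smallest adjusted p of a member by edgeR was 0.465 for full-length against control, 0.555 for NHL domain against control and 0.684 between the baits. At an unadjusted p under 0.05 by edgeR there was 1 member with full-length against control, PyK, and 1 with the NHL domain against control, Gapdh2. Between the baits there was none. Of all 1869 genes tested, 144, 143 and 178 were under this p in the same order, so 1 of 6 members does not set them apart. DESeq2 gave none of the members an adjusted p and so called none. In this fit the median log2 fold change of all genes was 1.99 for full-length against control, 2.05 for NHL domain against control and 0.25 between the baits. The median of the 6 members was 2.44, 2.72 and 0.16 in the same order. Hex-A, Gapdh2 and PyK had no control cDNA, and their fitted fold changes over the control depend on the prior count of edgeR.

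**Figure D2:**
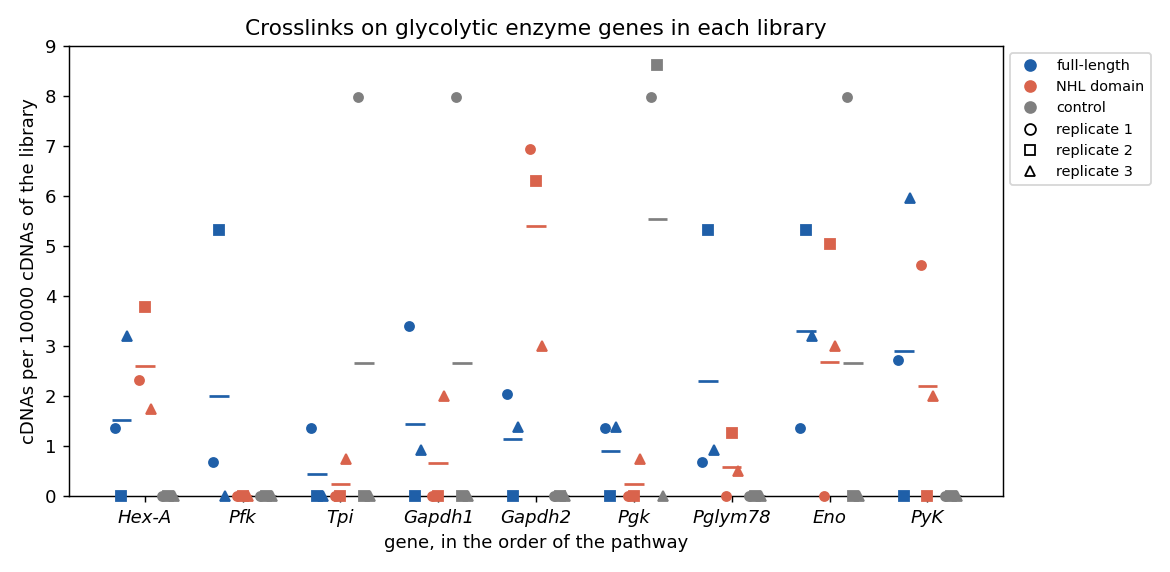
Rate of each glycolytic gene in each library, in cDNAs per 10000 cDNAs of the library on the y axis, with genes in pathway order on the x axis, colour for the group, symbol for the replicate and a short line for the mean of 3 libraries. Gapdh2 is the only gene whose NHL domain libraries (3.00 to 6.94) all lie above its full-length libraries (0 to 2.04), and a single cDNA puts a control library at 7.99 or higher.

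Hex-A, a hexokinase, which phosphorylates glucose as it enters the pathway, lies on X from 9585675 to 9589813 on the plus strand (FBgn0001186; Release 6, as are all coordinates here). It had 2, 0 and 7 cDNAs in full-length replicates 1 to 3, 1, 3 and 7 in the NHL domain replicates and 0 in each control. The NHL domain rates of 2.31, 3.78 and 1.75 per 10000 all lay above the control at 0, as they did for 14.4% of the genes tested (1.55% were lower without overlap), while the full-length rates of 1.36, 0 and 3.21 overlapped both other groups. The exact permutation test gave p = 0.1 for NHL domain against control (two-sided, n = 3 per group, the smallest that 3 against 3 can reach), and the adjusted p over all 27 tests of members was 0.675. Between the baits, the log2 fold change was −0.07 ± 1.01 (SE), with an adjusted p of 0.989 by edgeR.

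Pfk encodes phosphofructokinase, the main regulated step of the pathway (2R, 10109740 to 10117457, plus strand; FBgn0003071). It was nearly absent from the libraries, with 1 cDNA in each of full-length replicates 1 and 2 and 0 in the other 7 libraries. This is fewer than in any other member although its gene is the longest of the 9.

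Tpi encodes triosephosphate isomerase, which interconverts both triose phosphates (3R, 30132981 to 30134599, minus strand; FBgn0086355). Its 6 cDNAs came from 3 libraries, with 2 in full-length replicate 1, 3 in NHL domain replicate 3 and 1 in control replicate 1. All groups overlap at 0. The lone control cDNA equals a rate of 7.99 per 10000, above either bait, which shows how coarse a step 1 cDNA makes in a control library.

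Gapdh1 and Gapdh2 are paralogs that encode glyceraldehyde-3-phosphate dehydrogenase, the enzyme that reduces NAD in the pathway. Gapdh1 lies on 2R from 7791901 to 7793380 on the minus strand (FBgn0001091) and Gapdh2 on X from 15868145 to 15869661 on the plus strand (FBgn0001092). How reads that fit both genes were assigned is not stated in the sources used here, so the split between them is uncertain. Gapdh1 had 5, 0 and 2 cDNAs with full-length Mei-P26, 0, 0 and 8 with the NHL domain, and 1, 0 and 0 in control libraries. All 8 NHL domain cDNAs of Gapdh1 were thus from the deepest library, and the groups overlap. The log2 fold change between the baits was 0.38 ± 0.99 (SE), with an adjusted p of 0.944 by edgeR.

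Gapdh2 had the clearest separation between the baits. It had 3, 0 and 3 cDNAs in the full-length replicates, 3, 5 and 12 in the NHL domain replicates and 0 in each control. As rates per 10000, the NHL domain gave 6.94, 6.29 and 3.00, and full-length Mei-P26 gave 2.04, 0 and 1.37. The groups do not overlap, the full-length rates being lower in 3 of 3 libraries, as for 7.38% of all genes tested (6.37% were higher without overlap). Full-length replicate 2, at 0, held only 1878 cDNAs, so that 1 cDNA there equals 5.32 per 10000. A single Gapdh2 cDNA in that library would therefore have made the groups overlap. The mean was 1.14 ± 1.04 (SD, n = 3) with the full-length protein and 5.41 ± 2.12 (SD, n = 3) with the NHL domain. The exact permutation test gave p = 0.1 and an adjusted p of 0.675, and edgeR a log2 fold change of −1.45 ± 0.92 (SE) with an adjusted p of 0.684. The pooled rate with full-length Mei-P26 was 0.409 times that with the NHL domain (95% counting interval 0.134 to 1.06). The NHL domain libraries were also all above the control at 0, again with p = 0.1 in the exact permutation test.

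Since the 2 Gapdh genes may share reads, their cDNAs were also summed, a choice made after the values were seen. The pair gave 5.45, 0 and 2.29 cDNAs per 10000 with full-length Mei-P26, 6.94, 6.29 and 4.996 with the NHL domain, and 7.99, 0 and 0 in control libraries. The baits then overlapped, and the exact permutation test between them gave p = 0.2 (n = 3 per group). The mean difference, full-length minus NHL domain, was −3.50 per 10000 for the pair and −4.27 for Gapdh2 alone, and the overlap came from full-length replicate 1 and NHL domain replicate 3.

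Pgk encodes phosphoglycerate kinase, which makes ATP from the product of the dehydrogenase (2L, 2746880 to 2753068, minus strand; FBgn0250906). It had 2, 0 and 3 cDNAs with full-length Mei-P26, 0, 0 and 3 with the NHL domain, and 1, 1 and 0 in control libraries. Its control rates of 7.99 and 8.62 per 10000 in replicates 1 and 2 were above all 6 bait libraries, on 1 cDNA each. Pooled, the full-length rate was 0.212 times that of the control (95% counting interval 0.0348 to 2.23) and the NHL domain rate 0.0935 times (0.0107 to 1.12). Both intervals include 1.

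Pglym78 encodes a phosphoglycerate mutase (3R, 29148248 to 29149901, plus strand; FBgn0014869). It had 1, 1 and 2 cDNAs in the full-length replicates, 0, 1 and 2 in the NHL domain replicates and 0 in each control. The full-length rates of 0.681, 5.32 and 0.916 per 10000 all lay above the control at 0. Of the genes tested, which have at least 10 cDNAs and so leave out Pglym78, 11.9% also showed this (1.93% were lower without overlap). The exact permutation test gave p = 0.1 and an adjusted p of 0.675. The NHL domain rates of 0, 1.26 and 0.4996 overlapped both other groups.

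Eno encodes enolase, which forms phosphoenolpyruvate (2L, 1724768 to 1729636, minus strand; FBgn0000579). It had 2, 1 and 7 cDNAs with full-length Mei-P26, 0, 4 and 12 with the NHL domain, and 1, 0 and 0 in control libraries. The rates were 1.36, 5.32 and 3.21 per 10000 with the full-length protein and 0, 5.03 and 3.00 with the NHL domain, and they overlap. The log2 fold change between the baits was −0.25 ± 0.87 (SE), with an adjusted p of 0.954 by edgeR. The pooled ratio of full-length to NHL domain was 0.851 (95% counting interval 0.345 to 2.00).

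PyK encodes pyruvate kinase, which makes pyruvate and ATP in the last step (3R, 22367536 to 22372746, plus strand; FBgn0267385). It had 4, 0 and 13 cDNAs in the full-length replicates, 2, 0 and 8 in the NHL domain replicates and 0 in each control. The full-length rates were 2.72, 0 and 5.95 per 10000 and the NHL domain rates 4.63, 0 and 2.00, so that replicate 2 was at 0 with both baits and the groups overlap. Pooled, full-length Mei-P26 gave 2.32 times the rate of the NHL domain (95% counting interval 1.00 to 5.66), with 13 of its 17 cDNAs from replicate 3. The edgeR fit gave a log2 fold change of 1.02 ± 0.86 (SE) and an adjusted p of 0.792. Without full-length replicate 3 the log2 fold change was 0.15. Hex-A, Pfk, Gapdh2, Pglym78 and PyK had no cDNA in any control library, but 3 cDNAs over the control group correspond to 9.20 per 10000, above the rate of every member in every bait library, so no fold over the control is given for these genes.

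Crosslinks of most members lay towards the 3′ end of the gene. Of the 141 cDNAs, 85 fell in the last 20% of the annotated gene, namely 37 of 62 in full-length, 44 of 74 in NHL domain and 4 of 5 in control libraries. Per library the share was 63.6%, 33.3% and 59.5% with full-length Mei-P26, of 22, 3 and 37 cDNAs (mean 52.1 ± 16.4%, SD, n = 3). With the NHL domain it was 83.3%, 46.2% and 60.0%, of 6, 13 and 55 cDNAs (63.2 ± 18.8%, SD, n = 3). In the control it was 3 of 4 cDNAs in replicate 1 and the only cDNA in replicate 2. In other protein-coding genes the share was 54.5 ± 5.31% in full-length libraries, 43.9 ± 4.29% in NHL domain libraries and 44.6 ± 1.05% in control libraries (SD, n = 3 each). Within libraries, the members were above the other genes in all 3 NHL domain libraries (83.3% against 41.7%, 46.2% against 41.1% and 60.0% against 48.8%) and in both control libraries with a cDNA. With full-length Mei-P26 they were above in replicate 1 (63.6% against 53.5%) and below in replicates 2 and 3 (33.3% against 49.7% and 59.5% against 60.2%). No test of these differences was run.

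**Figure D3:**
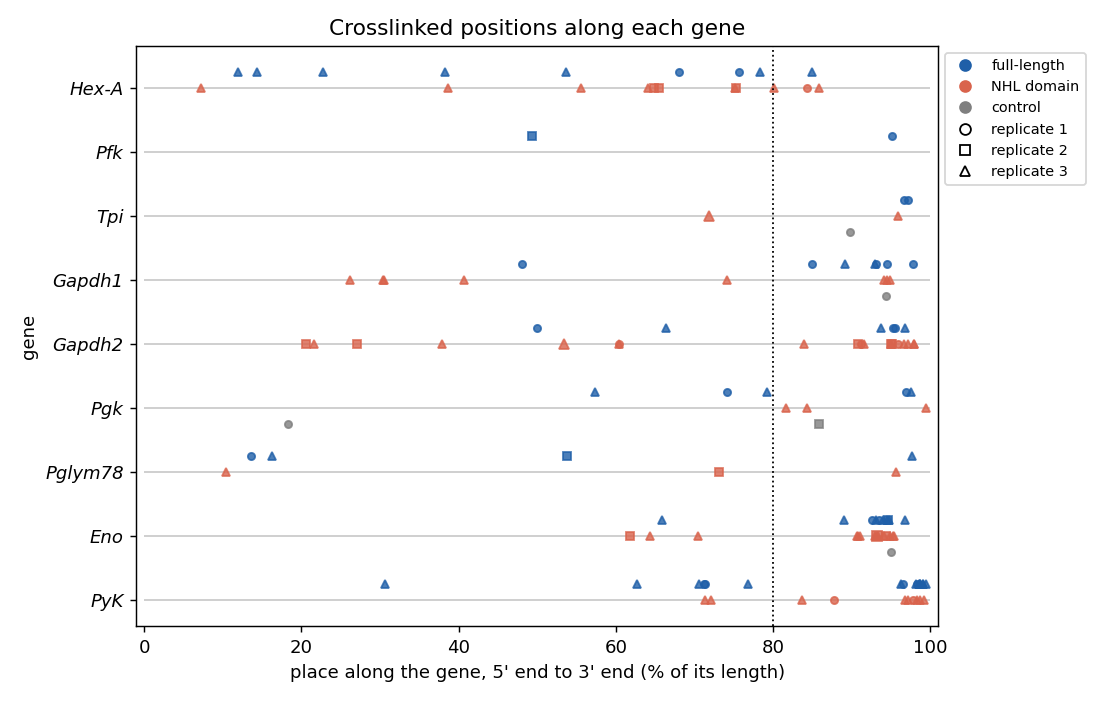
Place of every crosslinked position along the 9 glycolytic genes, from the 5′ end at 0 to the 3′ end at 100% of the annotated gene on the x axis, with colour for the group, symbol for the replicate, and a dotted line at 80%. Most positions of Eno and PyK lie to the right of the line, whereas 4 of the 20 cDNAs of Hex-A do.

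The members differed among themselves in how close to the 3′ end they were crosslinked. PyK had 17 of its 27 cDNAs within 200 nt of the end, Gapdh2 15 of 26 and Gapdh1 9 of 16. Eno had 1 of 27 within 200 nt but 21 between 200 and 500 nt, so that its crosslinks clustered in a stretch farther from the annotated end, at 154 to 453 nt. Both baits showed this placement of Eno, with 8 of 10 full-length and 13 of 16 NHL domain cDNAs within 500 nt. Tpi had 4 of 6 cDNAs within 200 nt, Pgk 3 of 10 and Pglym78 2 of 7. Hex-A was the exception among the better covered genes, with 0 of 20 cDNAs within 500 nt of its end, the nearest at 584 nt. Over the other protein-coding genes 28.2% of cDNAs lay within 200 nt and 42.9% within 500 nt, against 36.2% and 56.0% for the members together. These distances are not scaled to gene length, and Gapdh1, Gapdh2, Tpi and Pglym78 are only 1480 to 1654 nt long. The 2 sets were not matched for length. The ends are those of the gene annotation, and exons, introns and UTRs were not assigned here.

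**Figure D4:**
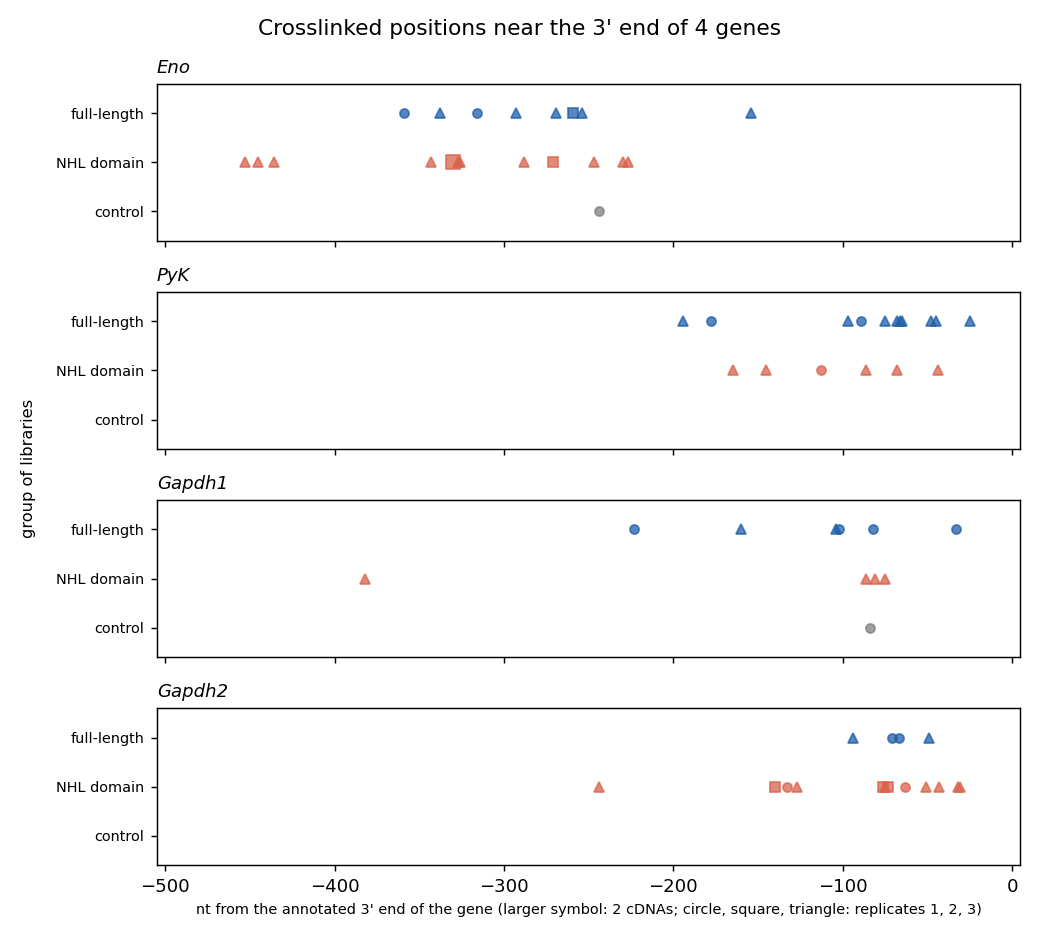
Crosslinked positions of Eno, PyK, Gapdh1 and Gapdh2 in the last 500 nt of each gene, with the distance from the annotated 3′ end in nt on the x axis, 1 row per group and symbol for the replicate. Positions of Eno lie between 154 and 453 nt from the end, while those of PyK, Gapdh1 and Gapdh2 gather within 200 nt.

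Recurrent sites were few. At single-nucleotide resolution no position in a member was crosslinked in 2 full-length replicates. With the NHL domain there was 1, in Gapdh2 at position 15869060 of X, 601 nt from the 3′ end, with 1 cDNA in replicate 1 and 1 in replicate 3. Thus 0 of the 6 tested members had such a site with full-length Mei-P26 and 1 of 6 with the NHL domain, where 19.5% and 23.5% of all genes tested had one. Among the 1281 genes with 10 to 27 cDNAs, the range of the tested members, the shares were 6.32% and 9.68%.

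Joining positions of different replicates within 5 nt gave 2 sites with full-length Mei-P26 and 3 with the NHL domain. With the full-length protein these were 1725022 to 1725027 of 2L in Eno, 254 to 259 nt from the 3′ end in replicates 2 and 3, and 7792003 to 7792005 of 2R in Gapdh1, 102 to 104 nt from the end in replicates 1 and 3. Each held 2 cDNAs. With the NHL domain, 1725094 to 1725098 in Eno held 4 cDNAs from replicates 2 and 3, at 326 to 330 nt from the end, and 15869585 to 15869588 in Gapdh2 held 3 from the same replicate numbers, at 73 to 76 nt. The third was position 15869060 of Gapdh2. For either bait 2 of the 6 tested members had a site within 5 nt, where the shares of genes with 10 to 27 cDNAs that had one were 23.7% for full-length and 23.5% for NHL domain libraries (40.9% and 39.1% of all genes tested).

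Within 20 nt there were 5 sites in 4 members with full-length Mei-P26 and 7 in 3 members with the NHL domain. The best filled was in PyK, where 9 full-length cDNAs of replicates 1 and 3 lay from 22372649 to 22372721 of 3R, 25 to 97 nt from the 3′ end, with 3 NHL domain cDNAs in the same stretch. In Gapdh2, 8 NHL domain cDNAs lay from 15869585 to 15869630, 31 to 76 nt from the end, and came from all 3 replicates, with 3 full-length cDNAs among them. A second stretch of Gapdh2, 15869521 to 15869534, held 1 NHL domain cDNA of each replicate and none of the other groups. These 2 stretches of Gapdh2 were the only ones in a member seen in all 3 replicates of a bait. The share of other genes with a stretch in all 3 replicates was not counted, and the shares that follow are for at least 2 replicates. The shares of all tested genes with a site at this width were 54.8% with full-length Mei-P26 and 50.3% with the NHL domain, and 39.3% and 35.2% for genes with 10 to 27 cDNAs. The members' 4 of 6 and 3 of 6 are too few to set apart from these shares.

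Besides position 15869060 of Gapdh2, the other sites at this width held 2 to 5 cDNAs of their bait. With full-length Mei-P26 they were 1725022 to 1725037 in Eno, 7791983 to 7792005 in Gapdh1, 15869590 to 15869612 in Gapdh2 and 22372552 to 22372568 in PyK. With the NHL domain they were 1725039 to 1725056 and 1725094 to 1725111 in Eno, 15868457 to 15868473 in Gapdh2 and 9588786 to 9588792 in Hex-A. This Gapdh2 site lay 1188 to 1204 nt from the 3′ end of its gene, and the Hex-A site 1021 to 1027 nt. The Gapdh1 site with the full-length protein also held the only control cDNA of that gene.

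The peak calls of the authors marked the members in 1 place only. This was position 1725098 of 2L in Eno, 330 nt from the 3′ end, with 2 cDNAs in NHL domain replicate 2, both as a peak and as a cluster of 1 nt. It belongs to the Eno site that was also crosslinked in NHL domain replicate 3. No member had a cluster with full-length Mei-P26, where 27.8% of the genes tested had one, and 1 of 6 had one with the NHL domain, where 28.4% had one. Among genes with 10 to 27 cDNAs the shares were 18.3% and 16.6%.

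The baits met at the same nucleotide once, at position 22372678 of 3R in PyK, 68 nt from the 3′ end, in replicate 3 of each. Of 60 full-length positions in the 8 members hit by both baits, 29 lay within 20 nt of an NHL domain position and 35 within 50 nt. PyK had 12 of 17 within 20 nt, Eno 7 of 10, Gapdh2 4 of 6 and Gapdh1 3 of 7. For Hex-A it was 2 of 9, for Tpi 1 of 2, and for Pgk and Pglym78 0 of 5 and 0 of 4. The largest numbers were thus in PyK and Eno, whose crosslinks gather near the 3′ end with both baits, and the positions of a gene are not independent of each other.

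Coverage of neighbouring pathways differed, with a median of 13 cDNAs per gene in the tricarboxylic acid cycle, 9 in the pentose phosphate pathway, 4 in pyruvate entry, 1 in sugar uptake and the glycerol phosphate shuttle and 0 in the other genes of glycolysis and gluconeogenesis, against 16 for the members. Of 12 other genes of glycolysis and gluconeogenesis 5 had a cDNA and 1 had at least 10, namely Ald1 (aldolase, which splits the hexose), with 12 cDNAs with full-length Mei-P26, 13 in NHL domain libraries and 4 in control libraries. The other hexokinase genes Hex-C, Hex-t1 and Hex-t2, the mutase Pglym87 and Ldh, the lactate dehydrogenase, were at 0. Of 11 genes of the tricarboxylic acid cycle 10 had a cDNA and 7 at least 10, led by the aconitase mAcon1 with 37, the oxoglutarate dehydrogenase subunit Ogdh with 28 and the succinyl-CoA ligase subunit Scsalpha1 with 25. The remaining 4 were SdhB with 15, Idh3g with 14, kdn, the citrate synthase, with 13 and SdhA with 11. Of 5 pentose phosphate genes 4 had a cDNA, with 31 for the transketolase CG8036 and 12 for the isomerase Rpi. Of 5 genes of pyruvate entry 4 had a cDNA, with 10 for Pdha, and of 4 genes of sugar uptake and the glycerol phosphate shuttle 3 had one and none reached 10. The 11 of these genes with at least 10 cDNAs were tested with edgeR, and none passed an adjusted p of 0.05 in any comparison.

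The pattern across libraries was compared for the members with most cDNAs, on log2 rates plus 1 over the 9 libraries and among 149 genes with at least 100 cDNAs. For PyK the highest Pearson correlations were with Act5C (0.75), sqd (0.75) and Act42A (0.56), and for Eno with Hipk (0.73), Pdi (0.70) and Tsp42Ee (0.67). These values describe 9 libraries that differ in depth and bait, with many rates of 0.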

How the data were processed

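Reads were split by barcode, cleared of PCR duplicates and adapters and aligned per replicate by the authors (STAR 2.7.3a, per the submitters' processing notes), who called crosslinks, peaks and clusters with iCount (version not given in the sources used here). The deposited score tables hold counts of cDNAs at each position and gene, with no normalization, and the false discovery rate (an adjusted p-value) of the authors' peak caller. The deposited peak and cluster lists hold counts as well; the flanked clusters were not used. Positions are counted from 1.

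Counts were summed per gene and library. Gene ends came from a RefSeq gene table of Release 6, which 6179 of 6780 symbols matched; on 5573 protein-coding genes, 62035 of 62048 crosslinked positions lay inside. Genes with at least 10 cDNAs over 9 libraries were tested in 1 fit with edgeR 4.0.16 (R 4.3.3; TMM, quasi-likelihood test, Benjamini-Hochberg, threshold 0.05), tested on simulated data beforehand. DESeq2 1.42.0 was an alternative. For member rates, exact permutation tests (two-sided; SciPy 1.17.1) were run. Intervals are exact (Clopper-Pearson or Poisson) and cover counting error only. A site is a run of positions from at least 2 replicates of a bait, each within the stated distance of the next. All 9 members, their sites and peaks are named, and other pathway genes with at least 10 cDNAs or a call; for Eno and PyK, the 3 genes most like them. The members and lists were chosen with earlier results of these data known.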

Additional observations from a re-analysis of the deposited data

How the results depend on the processing

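No member was called under any alternative (DESeq2 gave none an adjusted p, and edgeR's default filter left 71 genes and no member), and of 270 alternative log2 fold changes of members 253 kept their direction. The other 17 changed sign, all without a call. Without TMM, Gapdh1 and Eno turned to −0.68 and −0.22 for full-length against control, and to −1.09 and −0.00068 for NHL domain against control. With RLE size factors, Gapdh1 turned to −0.998 for NHL domain against control, and Hex-A and Eno to 0.66 and 0.50 between the baits. Leaving out 1 library in turn, Gapdh1 ranged from −0.52 to 4.11 for full-length against control, from −3.02 to 3.91 for NHL domain against control and from −0.77 to 3.62 between the baits, where Hex-A ranged from −0.99 to 0.19, Eno from −0.72 to 0.040 and PyK from 0.15 to 1.33.

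Replicate numbers were not treated as pairs in the main fit. To look for pairing, the mean log2 rate of the group was subtracted from each library, gene by gene. These deviations correlated at −0.05 to 0.10 between same-numbered libraries of different groups. Between libraries with different numbers they correlated at −0.061 to 0.055. With so few cDNAs per gene and library, these values cannot show whether the libraries were paired. With the replicate number as a block, 3, 16 and 30 genes were called for full-length against control, NHL domain against control and between the baits, against 3, 20 and 36 without, no member among them, and Hex-A turned to 0.0028 between the baits.

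The counts of genes called, which set the background, moved more. For full-length against control there were 3, all higher. There were 2, both lower, without TMM, 5 with the default filter (3 higher, 2 lower), 13 with DESeq2 (12 higher, 1 lower), and 1 to 10 leaving out 1 library. For NHL domain against control there were 20, 0 without TMM, with RLE and with the default filter, 79 with DESeq2, 7 with positions in 1 gene only, and 14 to 28 leaving out 1 library. Between the baits there were 36 (1 higher with full-length Mei-P26), 58 with RLE (39 higher), 28 with the default filter (12 higher), 20 without a filter, 7 with positions in 1 gene only, and 9 to 53 leaving out 1 library. The median of all genes was 0.88, 0.78 and 0.30 without TMM and 1.70, 0.87 and 1.01 with RLE.

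The summed rate was 21.0 with full-length Mei-P26 and 23.5 with the NHL domain per 10000 cDNAs of genes other than small RNA and mitochondrial genes, mei-P26 and Act5C, and 17.7 and 18.01 with each position counted once. For the control it ranged from 4.31 to 20.3 leaving out 1 library. Recurrent sites were 0, 2 and 5 with full-length Mei-P26 and 1, 3 and 7 with the NHL domain at the same nucleotide, within 5 nt and within 20 nt. None was seen in all 3 replicates at the same nucleotide, and leaving out 1 library gave 0 to 1 with the NHL domain. In the last 10% of the gene the mean share per library was 47.9% with full-length Mei-P26 and 48.4% with the NHL domain. For the control libraries with a cDNA it was 25.0%. In the last 20% these means were 52.1%, 63.2% and 87.5%, the control values resting on 5 cDNAs. The exact permutation test was not run without a replicate, where 3 against 2 cannot reach a p under 0.2. Depth limits the values, with 141 cDNAs on the members in all and 849 to 1252 in a control library.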
